A study of Mus musculus with 6 samples.

Results

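The chemokine system was read as 39 genes, 16 chemokine receptors and 23 chemokine ligands, out of 18193 genes measured on the arrays. The genes were taken as a list of names, and each was read from the probe set with the highest mean over the 6 arrays among those that the platform annotation gives to that gene alone. RNA of LSK cells (lin- Sca1+ c-Kit+), in which the stem cells and the earliest progenitors of the marrow are found, was taken from C57BL/6 mice aged 6 to 7 weeks and hybridised to Affymetrix mouse genome arrays. The 3 WT samples came from 1 mouse each. The 3 IkL/L samples, from mice with a germline hypomorphic mutation of Ikzf1 (the gene of the zinc finger factor Ikaros), were each pooled from 2 mice before sorting, so they carry an average over animals that the WT samples do not. The labels name no treatment.

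Chemokines are small secreted proteins that guide cell movement. They are sorted by the spacing of the cysteines near their N terminus into CC, CXC, CX3C and XC classes, and they act through G protein-coupled receptors named for the class they bind. In bone marrow, CXCL12 made by stromal cells holds stem cells in place through CXCR4, CCR2 lets monocytes leave for the blood, and CCR9 and CCR7 take part in the seeding of the thymus by progenitors.

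The comparison of IkL/L with WT asks which of these genes differ in LSK cells when Ikaros is reduced. Of the 16 receptors, Ccr2 and Cx3cr1 were higher in IkL/L cells, by 2.67-fold and 3.66-fold. These 2 genes are 5.13% of the members, a list chosen with earlier results of these data known, beside 0.748% of all genes called higher. No receptor was called lower, and 0.242% of all genes were. None of the 23 ligands was called in either direction, so the 37 other members had adjusted p-values from 0.208 to 0.979. A call here means an adjusted p under 0.05 in limma, with adjustment over all 45037 probe sets.

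**Figure D1:**
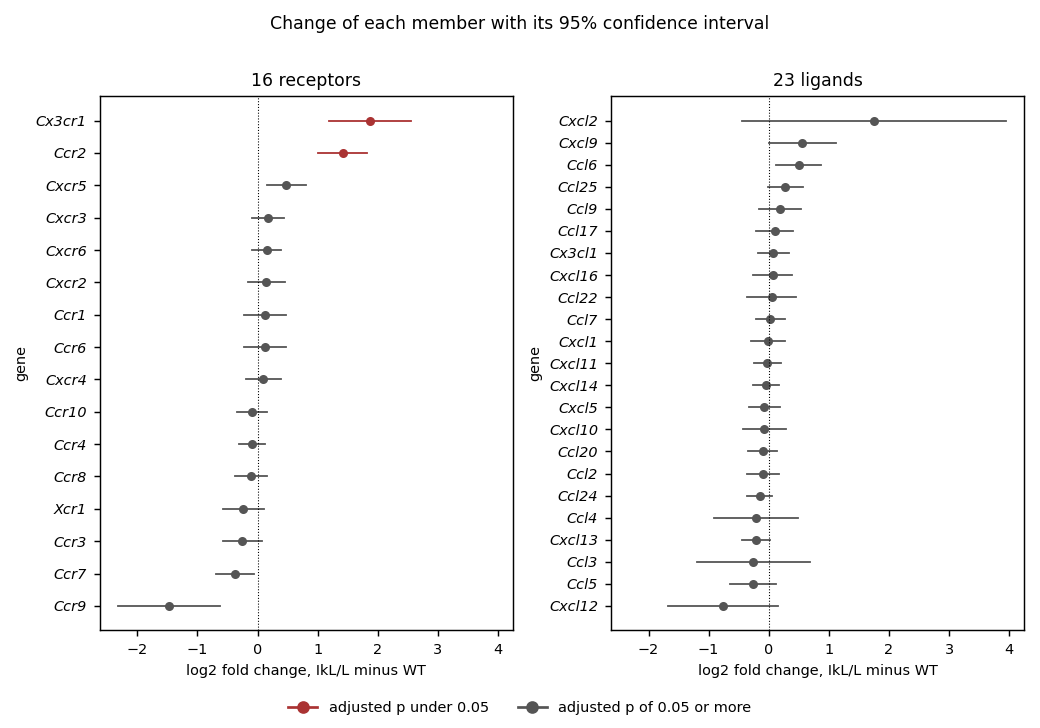
Log2 fold change of each member, IkL/L minus WT (points), with its 95% confidence interval (lines), for receptors on the left and ligands on the right; n = 3 arrays per genotype. Ccr2 and Cx3cr1 are the only points in red, with an adjusted p under 0.05, and the Cxcl2 interval runs from -0.45 to 3.94.

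The region before the start site is shown for the 3 receptors with the largest differences in either direction, Ccr2, Cx3cr1 and Ccr9, because their values carry most of what follows. Each is the 250 bases upstream in RefSeq's GRCm38.p6, written 5' to 3' on the strand of the gene, and capitals mark AGGAA or its reverse complement TTCCT, a motif that overlaps the GGAA core of Ets family sites. The Ccr2 region lies at chr9:124101933-124102182 on the plus strand, the Cx3cr1 region at chr9:120068297-120068546 on the minus strand and the Ccr9 region at chr9:123766961-123767210 on the plus strand.
Ccr2: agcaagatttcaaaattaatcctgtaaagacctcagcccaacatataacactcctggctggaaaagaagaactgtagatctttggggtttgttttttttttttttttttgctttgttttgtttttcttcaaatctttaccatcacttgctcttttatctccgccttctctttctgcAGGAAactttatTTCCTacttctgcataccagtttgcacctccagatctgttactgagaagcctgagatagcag
Cx3cr1: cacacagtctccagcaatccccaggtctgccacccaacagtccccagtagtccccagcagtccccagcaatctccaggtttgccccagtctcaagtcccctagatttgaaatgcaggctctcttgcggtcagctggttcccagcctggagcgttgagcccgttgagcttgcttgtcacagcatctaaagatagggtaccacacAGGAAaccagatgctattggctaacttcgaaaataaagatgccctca
Ccr9: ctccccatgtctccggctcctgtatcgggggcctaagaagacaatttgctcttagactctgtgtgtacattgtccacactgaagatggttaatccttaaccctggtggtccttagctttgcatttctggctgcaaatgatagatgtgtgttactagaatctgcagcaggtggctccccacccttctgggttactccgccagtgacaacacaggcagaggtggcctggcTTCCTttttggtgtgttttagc
Ccr2 has 1 AGGAA and 1 TTCCT, Cx3cr1 has 1 AGGAA, and Ccr9 has 1 TTCCT. The motif is common: it occurred on either strand in 60.3% of 32851 such regions and in 22 of 30 regions of members, which covered 28 of the 39 genes. A match in a window of this length describes the letters and says nothing about binding, and the arrays hold no binding data.

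Ccr2, the receptor for CCL2 and CCL7, had log2 values of 6.11, 6.24 and 6.13 in WT and of 7.58, 7.21 and 7.94 in IkL/L. All IkL/L arrays lay above all WT arrays, and the lowest of them was 0.97 above the highest WT array. The mean was 6.16 ± 0.07 in WT and 7.58 ± 0.37 in IkL/L (SD, n = 3 each), so the log2 fold change was 1.41 ± 0.17 (SE; adjusted p = 0.0174). Without WT replicate 1 the adjusted p was 0.107 and without IkL/L replicate 1 it was 0.104, at log2 fold changes of 1.39 and 1.41.

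Cx3cr1, the receptor for the membrane-bound chemokine CX3CL1 and a gene of monocytes and their precursors, had log2 values of 5.15, 4.86 and 5.46 in WT and of 7.13, 6.37 and 7.59 in IkL/L. The groups did not overlap. The mean rose from 5.16 ± 0.30 to 7.03 ± 0.61 (SD, n = 3 each), so the log2 fold change was 1.87 ± 0.29 (SE; adjusted p = 0.0430). This call sat close to the threshold: the adjusted p was 0.0525 after a second quantile normalization, and it was between 0.0538 and 0.216 on leaving out any array other than IkL/L replicate 2, while the log2 fold change was 1.59 or more with each of the 6 arrays left out in turn. In IkL/L cells the order of the arrays was the same for Ccr2 and Cx3cr1, highest in replicate 3 and lowest in replicate 2. Uncalled members had this order too, among them Cxcr4, Ccr10 and Ccl9, so it is not particular to Ccr2 and Cx3cr1.

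Ccr9, the receptor for CCL25 and a gene of thymus-seeding progenitors, had the lowest log2 fold change among the members. Its log2 values were 6.73, 5.29 and 5.91 in WT and 4.29, 5.06 and 4.17 in IkL/L. The groups did not overlap, although WT replicate 2 and IkL/L replicate 2 were 0.22 apart. The log2 fold change of -1.47 ± 0.37 (SE) was not called (adjusted p = 0.208). Its ligand Ccl25 had means of 5.34 ± 0.21 in WT and 5.62 ± 0.11 in IkL/L (SD, n = 3 each) and was not called either (adjusted p = 0.600).

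**Figure D2:**
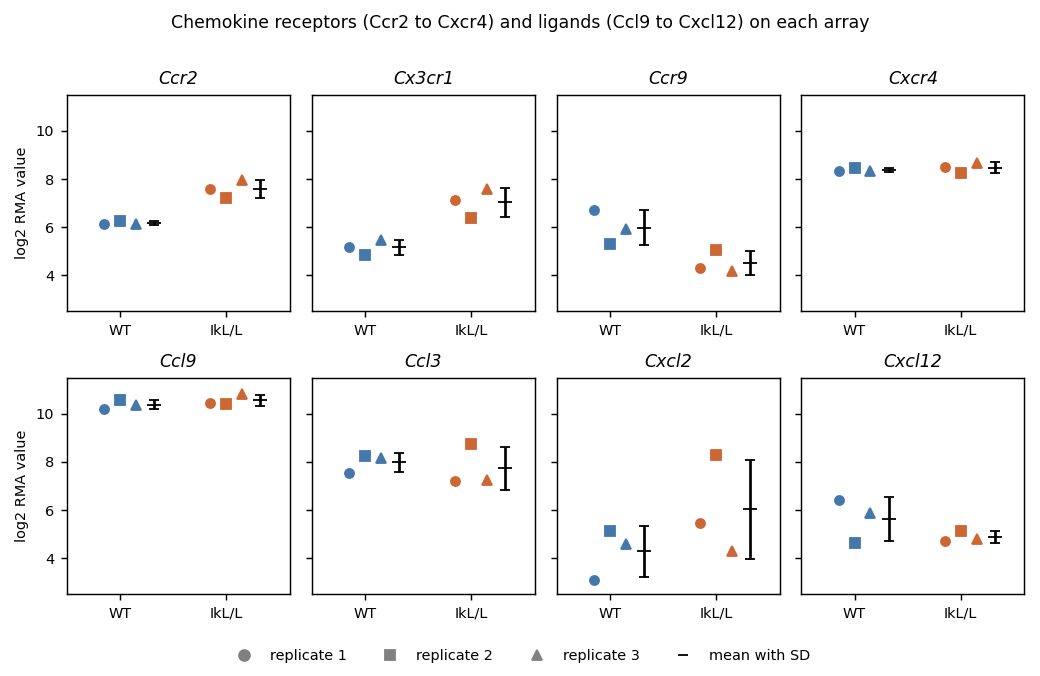
Log2 RMA values (vertical axis) of 4 receptors and 4 ligands on the 3 WT arrays (blue) and the 3 IkL/L arrays (orange), with mean and SD in black. Ccr2 and Cx3cr1 are apart between genotypes, Cxcr4 and Ccl9 overlap, and Cxcl2 reaches 8.29 on IkL/L replicate 2 alone.

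Ccr7, the receptor for the lymph node chemokines CCL19 and CCL21, had values of 4.58, 4.26 and 4.22 in WT and 3.81, 4.12 and 4.01 in IkL/L. The arrays of the groups were apart, the log2 fold change was -0.38, and the adjusted p was 0.447. Cxcr5, the receptor for CXCL13 on B cells, had values of 3.62, 3.73 and 3.42 in WT and 3.83, 4.26 and 4.11 in IkL/L, and its log2 fold change was 0.48 (adjusted p = 0.304). Both genes had means under 4.88, the highest of the 6 array medians, in each genotype. The RMA values hold no detection call, so these levels may not be told from background.

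Cxcr4, which binds CXCL12, had log2 values of 8.32, 8.46 and 8.35 in WT and 8.49, 8.25 and 8.68 in IkL/L. The groups overlapped, and the log2 fold change was 0.10 with a 95% confidence interval from -0.19 to 0.39 (adjusted p = 0.874). Ccr10, a receptor for CCL27 and CCL28, had values of 5.21, 5.32 and 5.37 in WT and 5.17, 5.08 and 5.37 in IkL/L, and Cxcr3, the receptor for CXCL9, CXCL10 and CXCL11, had values of 5.24, 5.05 and 5.04 in WT and 5.43, 5.31 and 5.11 in IkL/L. Neither was called, with intervals of the log2 fold change from -0.35 to 0.16 and from -0.09 to 0.45.

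The other 8 receptors (Ccr1, Ccr3, Ccr4, Ccr6, Ccr8, Cxcr2, Cxcr6 and Xcr1) had log2 fold changes between -0.25 and 0.15. Cxcr6 was the only one of these whose groups did not overlap, with values between 2.74 and 2.99 in WT and between 3.00 and 3.08 in IkL/L. Over all 16 receptors the median log2 fold change was 0.11, beside -0.02 over all genes. It was 0.01 over the same 16 without IkL/L replicate 2, and 0.0014 over the 14 receptors other than Ccr2 and Cx3cr1.

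Among the ligands, Ccl9, a myeloid CC chemokine, had values of 10.18, 10.56 and 10.37 in WT and 10.46, 10.39 and 10.82 in IkL/L. The groups overlapped, with a log2 fold change of 0.19 (95% confidence interval -0.16 to 0.53). Its neighbour Ccl6, which is also expressed in myeloid cells, had values of 5.17, 5.02 and 5.18 in WT and 5.99, 5.51 and 5.35 in IkL/L. Here every IkL/L array was above every WT array, but the difference of 0.50 on the log2 scale was not called (adjusted p = 0.394). Cxcl9, an interferon gamma-induced ligand of CXCR3, had values of 4.61, 4.40 and 5.31 in WT and 5.02, 5.45 and 5.54 in IkL/L, which overlapped (log2 fold change 0.56, adjusted p = 0.564).

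Ccl3, an inflammatory CC chemokine, had values of 7.53, 8.25 and 8.18 in WT and 7.20, 8.76 and 7.24 in IkL/L. Ccl4, its neighbour on the chromosome, had values of 6.86, 7.27 and 7.28 in WT and 6.67, 7.69 and 6.42 in IkL/L. Cxcl2, a neutrophil attractant, was named after its values were seen, for the largest fold change among the ligands, with values of 3.10, 5.14 and 4.59 in WT and 5.48, 8.29 and 4.30 in IkL/L. All 3 ligands were highest on IkL/L replicate 2 and lower on the other 2 IkL/L arrays, and none was called. Their log2 fold changes of -0.26, -0.21 and 1.75 became -0.77, -0.59 and 0.61 without that array. The 10 immediate early genes, which respond within minutes to handling or stimulation, were each highest on the same array, with a mean log2 value of 10.42 there and between 8.25 and 9.26 on the others. Whether this accounts for the ligand values was not tested.

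**Figure D3:**
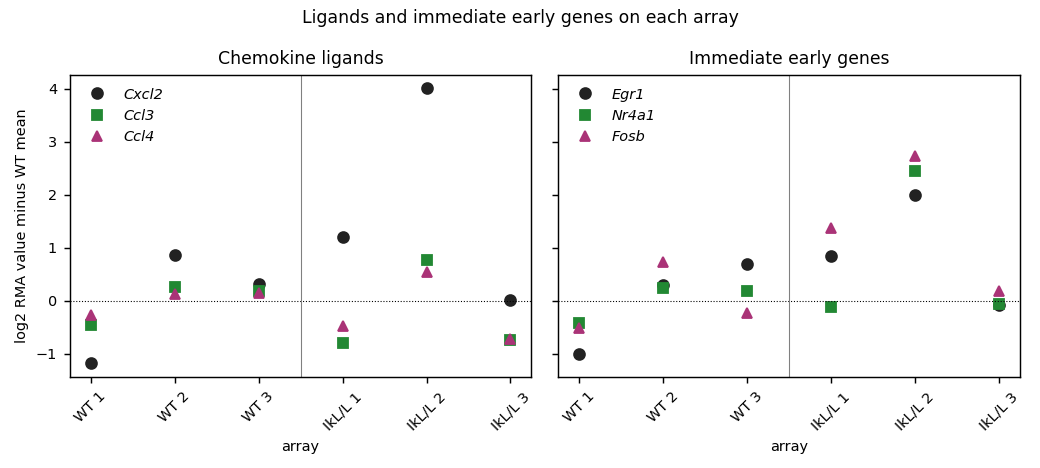
Log2 RMA value minus the WT mean (vertical axis) of 3 ligands on the left and 3 immediate early genes on the right, on each of the 6 arrays (horizontal axis). IkL/L replicate 2 is the highest array for all 6 genes.

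Ccl5, a T and NK cell chemokine, had values of 6.78, 6.41 and 6.56 in WT and 6.08, 6.65 and 6.22 in IkL/L. Cxcl1, a neutrophil attractant next to Cxcl2, had values of 6.75, 7.01 and 6.68 in WT and 6.66, 6.93 and 6.80 in IkL/L, and Cxcl16, the ligand of CXCR6, had values of 5.63, 5.59 and 5.26 in WT and 5.56, 5.39 and 5.73 in IkL/L. The groups overlapped for all 3 ligands, and their log2 fold changes were -0.27, -0.02 and 0.07. Cxcl12, the ligand of CXCR4, was also named after its values were seen, for the lowest log2 fold change among the ligands. It had values of 6.41, 4.64 and 5.86 in WT and 4.70, 5.14 and 4.79 in IkL/L. The log2 fold change was -0.76 (adjusted p = 0.651), and the groups overlapped, WT replicate 2 being the lowest of all. The mean of 9 stromal and endothelial genes ran from 5.49 to 6.34 in WT and from 5.62 to 5.76 in IkL/L, with log2 fold changes above 0 for 4 genes and below 0 for 5, and Cdh5, an endothelial cadherin, was called higher. Col1a1, a collagen gene, had values of 6.36, 5.47 and 4.43 in WT and 3.75, 4.16 and 4.08 in IkL/L. Of the 8 macrophage markers, 3 had log2 fold changes above 0, the highest being 1.17 for Cd68, and 5 had log2 fold changes below 0. Among the latter, the complement gene C1qa, named after its values were seen, had values of 5.67, 4.65 and 5.81 in WT and 4.34, 5.04 and 4.15 in IkL/L. The part of these cells in the Cxcl12 values was not tested. The other 13 ligands had log2 fold changes between -0.22 and 0.28, with groups that did not overlap for Ccl24 and Cxcl13, and the median over all 23 was -0.02.

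The groups did not overlap for 9 of the 39 members. The IkL/L arrays were above the WT arrays for 5 of them (12.8%, beside 7.62% of all genes), and below them for 4 (10.3%, beside 9.59% of all genes). An unadjusted p under 0.05 in limma was reached by 7 members (17.9%, beside 11.2% of all genes). Of the 39 members, 17 (43.6%, beside 37.6% of all genes) had both group means under the highest array median. No test was made of the list as such.

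Several members are measured by more than 1 probe set, 16 of them in all, and these often differed. Ccr2 has 4, of which only the one reported was called. The others had log2 fold changes of 1.05, 0.45 and 0.03, and only that of 1.05 had groups that did not overlap. Cx3cr1 has 2, and the second had means of 3.68 and 3.80 with a log2 fold change of 0.13. Ccr9 has 5. The one reported carries the suffix that Affymetrix gives to probe sets with probes that may also match other transcripts. The other 4 had log2 fold changes between -0.11 and 0.07. Their group means, between 3.50 and 4.65, were under the highest array median of 4.88, so they may not be told from background. The mean of the reported one in IkL/L, 4.51, was under it too. When the probe sets of each gene were averaged, the log2 fold changes were 0.73 for Ccr2, 1.00 for Cx3cr1 and -0.30 for Ccr9. This limma fit was adjusted over 18193 genes in place of all 45037 probe sets. Under that adjustment Ccr2 and Cx3cr1 were still called (adjusted p = 0.0457 and 0.0157). Ccl9 had 0.58 on its second probe set, with overlapping groups, and Cxcl12 had -0.42 and -0.07 on its others. The reported probe set of Cxcl1 carries the same suffix as that of Ccr9. Its others had log2 fold changes of 0.28, with means of 3.43 in WT and 3.70 in IkL/L, and -0.10, with means of 5.95 and 5.86.

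**Figure D4:**
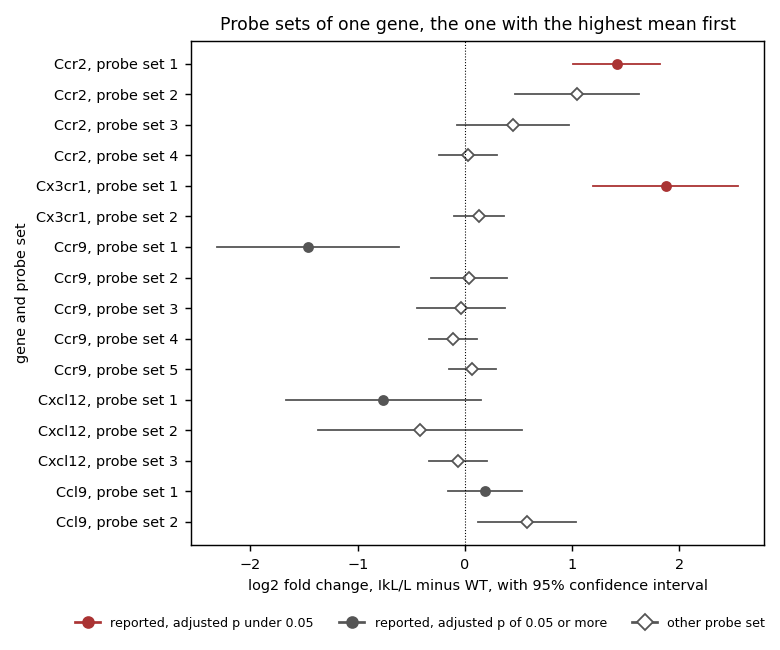
Log2 fold change, IkL/L minus WT, with 95% confidence interval for each probe set of 5 members, the one with the highest mean first and filled. For Ccr9 the reported probe set is at -1.47 while the others, all with means under 4.88, are near 0. For Ccr2 the 4 probe sets run from 1.41 to 0.03.

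In the order of RefSeq protein-coding genes, Cx3cr1 (1.87) lies beside Ccr8, which had a log2 fold change of -0.11, and Ccr2 (1.41) beside Ccr3, which had -0.25. Ccr9 (-1.47) lies 1 gene from Cxcr6, at 0.15. Among the ligands, Ccl5, Ccl9, Ccl6, Ccl3 and Ccl4 follow one another with -0.27, 0.19, 0.50, -0.26 and -0.21.

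Other genes of the chemokine system, taken from lists chosen with earlier results of these data known, were not called. None of 5 atypical receptors, which bind chemokines without coupling to G proteins, passed, and Ccrl2 and Ackr1 had log2 fold changes of 0.35 and 0.28. None of 11 further ligands passed: Ccl1 was at -0.42 with an adjusted p of 0.247, Pf4, the platelet chemokine, at 0.53 with 0.408, and Cxcl17 at -0.34 with 0.514. None of 28 genes of receptor signalling passed, among them the G protein regulator Rgs10 (0.45, adjusted p = 0.227), the GTPase Rac1 (0.33, 0.352), the adaptor Rassf5 (-0.36, 0.395) and the phospholipase Plcb3 (0.35, 0.501). The 9 early lymphoid genes, from a list chosen in the same way, include Ccr9 itself. Of them, Rag2 was called lower (-1.13), which is 11.1%, beside 0.242% of all genes. All IkL/L arrays were below all WT arrays for 8 of them, Ccr9 included (88.9%, beside 9.59% of all genes).

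Markers of other cells were read beside the receptors; the sort had depleted cells carrying B220, CD11b, Gr1 or Ter119. Of 9 mature neutrophil and monocyte markers, Lcn2 and Cd14 were called higher, with log2 fold changes of 2.08 and 0.93. That is 22.2% of the list. Over all genes 0.748% were called higher, which also stands beside the shares of the lists below. The mean of the list per array ran from 4.26 to 5.02 in WT and from 4.68 to 5.80 in IkL/L. Lcn2, an iron-binding granule protein, had values of 3.80, 3.61 and 3.84 in WT and 6.39, 5.10 and 6.01 in IkL/L, and Cd14, a lipopolysaccharide co-receptor, had values of 4.76, 4.66 and 4.63 in WT and 5.85, 5.55 and 5.46 in IkL/L. The groups did not overlap for either gene. None of 8 macrophage markers was called. Their mean ran from 4.84 to 5.44 in WT and from 4.85 to 5.40 in IkL/L, and Cd68, at 1.17 with an adjusted p of 0.0651, had values of 7.05, 6.44 and 7.28 in WT and 8.07, 7.97 and 8.25 in IkL/L. Among 8 dendritic cell markers, Cd74 and H2-Eb1 were called higher (25.0%), with 4 log2 fold changes above 0 and 4 below. All IkL/L arrays were above all WT arrays for 2 of the 8 and below for 2, Itgax (-0.58) and Flt3 (-0.88). Mcpt8 was called higher among 7 of basophils and mast cells (14.3%), and Ms4a1 and Mzb1 among 7 of B and plasma cells (28.6%). Itgb3 and Vwf were called higher among 7 of megakaryocytes (28.6%), and Cdh5 among 9 stromal and endothelial genes (11.1%). None of 8 T and NK cell markers, 4 LSK markers or 10 immediate early genes was called. Mcpt8, a basophil protease, had values of 7.10, 7.10 and 7.64 in WT and 9.61, 9.54 and 10.09 in IkL/L. The mean of the basophil and mast cell list ran from 6.63 to 7.01 in WT and from 7.52 to 7.74 in IkL/L. All IkL/L arrays were above all WT arrays for 6 of its 7 genes (85.7%, beside 7.62% of all genes) and below for 1. List means were also apart for B and plasma cells (5.76 to 5.99 in WT, 6.50 to 7.12 in IkL/L), with 2 of 7 log2 fold changes below 0. So were those of megakaryocytes (7.19 to 7.77 and 8.17 to 8.53), with 1 of 7 below 0. The part of cells of these types in the receptor values was not tested. In sorted bulk samples, more or fewer cells of a type cannot be told apart from more or less RNA per cell.

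Ikzf1 itself had a log2 fold change of -0.68 (adjusted p = 0.0307) on its brightest probe set, in the direction of the labels. Its other probe set had -0.21 and was not called (adjusted p = 0.622). Of the 4 LSK markers measured, none was called: Kit and Cd34 had log2 fold changes of -0.13 and -0.08, Slamf1 had 0.06, and Flt3 had -0.88 (adjusted p = 0.132) with groups that did not overlap. Array medians lay between 4.79 and 4.88, and the correlation between arrays was 0.986 to 0.995 over all probe sets. Of all probe sets, 251 were called, 191 higher and 60 lower. Nothing in the labels names a batch, and the p-values measure only the spread between these 6 samples.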

How the data were processed

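Total RNA from sorted LSK cells (100 ng, 2-cycle labelling) of 3 WT and 3 IkL/L samples was hybridised to Affymetrix mouse genome arrays. The deposited values are log2 RMA expression values that the authors normalized together with thymocyte arrays not used here. The submitters' processing notes name RMA and R 2.8. No genome build applies to these values. Of 45037 probe sets, 34945 had 1 gene in the annotation and 932 several, and 9160 were not listed. Genotypes were compared by limma 3.58.1 under R 4.3.3, with genotype as the only term, a moderated two-sided test and Benjamini-Hochberg adjustment over all probe sets; the script was first tested on simulated data. All members were accounted for. Values per array are given for members that were called, had an unadjusted p under 0.05 or were among the 6 receptors or 6 ligands with the highest mean. Of the other pathway genes, those called and up to 4 with the smallest p are named. Members and lists were chosen with earlier results of these data known. Alternatives were 2 other scalings, 2 filters on low values, moderation with a trend, array weights, a replicate block, gene means and leaving out each array. No depth applies to arrays: the 3 per group limit the precision.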

Additional observations from a re-analysis of the deposited data

How the results depend on the processing

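Under 14 alternatives no member changed direction with a call, and 37 members were never called. The 2 called members became 1 after a second quantile normalization (Ccr2, with Cx3cr1 at an adjusted p of 0.0525) and 1 with the replicate block (Cx3cr1, with Ccr2 at 0.0522). On leaving out 1 array the count ran from 0 to 2, and it was 0 without WT replicate 1 or IkL/L replicate 1. All of these were receptors. Ligands called stayed at 0 throughout. Of the 23 ligands, 2 had an unadjusted p under 0.05 in limma (8.7%, beside 11.2% of all genes). The labels do not say whether replicate numbers pair the samples. The correlations of same-numbered deviations were 0.003, -0.131 and 0.103, beside -0.165 to 0.161 for other pairs. With 3 arrays per group these cannot decide it. The block gave 143 probe sets called across the table in place of 251, and leaving out 1 array gave 57 to 287. The median log2 fold change of receptors, 0.11 as reported, was 1.41 over the 3 with a mean of at least 6 (Ccr2, Cx3cr1 and Cxcr4), which is the value of Ccr2 and no sign of stability, since Cx3cr1 reached that mean only through IkL/L; it was 0.0132 to 0.111 on leaving out 1 array, lowest without IkL/L replicate 2. That of ligands was 0.0651 over the 15 at or above the median level and -0.21 over the 5 with a mean of at least 6. The sign turned for 11 uncalled members under some setting, among them Ccl3, Ccl4, Cxcr4 and Cxcl1. Fewer genes are tested under the filters, and gene means are adjusted over genes, not probe sets. The other causes were not tested.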
